A study of Homo sapiens with 20 samples.

Results

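The transcripts described here are those of ATF4 and 9 genes of its stress programme, DDIT3, ASNS, TRIB3, CHAC1, ATF3, DDIT4, SESN2, ATF5 and CEBPB, followed through every library of a study of proteasome inhibitor resistance in myeloma cell lines. They were picked by name as members of the integrated stress response, and all 10 were found among the 18305 genes of the expression table and among the 13089 genes tested. In this response a family of kinases phosphorylates the translation factor eIF2α when amino acids run short, when unfolded protein collects in the endoplasmic reticulum, when haem is lacking or when a virus is sensed. Most protein synthesis then slows while the ATF4 message is translated more, and ATF4, a bZIP transcription factor, switches on genes for amino acid supply, redox balance and, under lasting stress, cell death. Plasma cells and myeloma cells make large amounts of immunoglobulin, and proteasome inhibitors, which block the disposal of misfolded protein, are known to trigger this response.

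RNA was sequenced from 20 libraries in 10 groups, each with 2 replicates. Wild-type (WT) groups held untreated parental cells. AMO1, L363 and RPMI are myeloma lines and ARH77 is a B-lymphoblastoid line. Cells resistant to bortezomib (BtzR, all 4 lines) or to carfilzomib (CfzR, AMO1 and L363) had been evolved in culture and were kept in 90 nM of their drug, so that resistance and the presence of the drug cannot be told apart in these groups. Every group is 1 line without an independently derived second resistant line, all were fed the same glutamine-supplemented medium, and the replicates are described as biological in the study's methods.

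Values are FPKM, fragments scaled by transcript length and library size. They summed to 457317 to 494850 per library, and 10455 to 11023 genes reached 1 FPKM. The read depth of each library is unknown. Of 7 plasma cell markers, 6 were at 1 FPKM or more in every myeloma library, and 6 were so in every ARH77 library too. Summed, the 7 had 506 to 3687 FPKM in the myeloma libraries and 238 to 258 in ARH77. The B cell markers MS4A1, CD22 and PAX5 were under 1 FPKM in the myeloma libraries. A further B cell marker, CD79A, reached 1.70 FPKM in the myeloma libraries and lay between 172 and 264 in ARH77, where the other B cell markers named were at 1 FPKM or more in every library. Of 4 T cell markers CD3D and CD2, and of 4 myeloid markers CD14 and CSF1R, were under 1 FPKM in all myeloma libraries. CD3E reached 10.7, CD3G 2.16 and CD68 16.6 FPKM there, and LYZ lay between 3.03 and 8.22. A pair of libraries stands against its label. Across tested genes those labelled AMO1 CfzR correlated with the 6 L363 libraries at r of 0.986 to 0.992 and with the 4 other AMO1 libraries at 0.878 to 0.883, so they are called by their label and set beside both parental lines below.

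ATF4 and its partners of the C/EBP family bind a composite element that is best known from the promoter of ASNS, the gene of asparagine synthetase. Because most members moved together between libraries, their promoters were searched for 8 letters of that element, TGATGNAA, on both strands. The windows ran from 250 bases before to 50 bases after each transcript start in RefSeq (GRCh38.p14). All 10 members matched, with 19 windows, and 3 windows held the letters, those of ASNS, CHAC1 and ATF3. Over all genes 3.62% of 35116 such windows held them. The element is known from ASNS itself and the members were picked by name for this response, so these shares do not test enrichment. The letters are in capitals below, and each sequence reads in the direction of the gene. They begin 68 bases before a start of ASNS (chr7:97872359-97872658, minus strand), 209 bases before that of CHAC1 (chr15:40953221-40953520, plus strand, on the opposite strand to the gene) and 191 bases before a start of ATF3 (chr1:212565157-212565456, plus strand). ASNS (chr7:97872116-97872415) and ATF3 (chr1:212614768-212615067) each have another window, which lacks the letters.
ASNS: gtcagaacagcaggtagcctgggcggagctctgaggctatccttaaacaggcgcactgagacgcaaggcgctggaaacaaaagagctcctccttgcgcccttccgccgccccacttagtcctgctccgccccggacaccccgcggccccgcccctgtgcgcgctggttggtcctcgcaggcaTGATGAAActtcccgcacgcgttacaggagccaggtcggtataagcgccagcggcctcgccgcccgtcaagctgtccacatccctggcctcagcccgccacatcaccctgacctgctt
CHAC1: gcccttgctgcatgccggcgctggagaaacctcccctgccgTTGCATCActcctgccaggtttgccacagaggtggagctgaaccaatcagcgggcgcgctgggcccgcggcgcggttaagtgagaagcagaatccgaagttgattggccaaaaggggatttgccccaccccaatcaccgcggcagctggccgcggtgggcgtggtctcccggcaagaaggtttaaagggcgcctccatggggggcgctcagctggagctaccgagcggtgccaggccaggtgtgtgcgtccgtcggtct
ATF3: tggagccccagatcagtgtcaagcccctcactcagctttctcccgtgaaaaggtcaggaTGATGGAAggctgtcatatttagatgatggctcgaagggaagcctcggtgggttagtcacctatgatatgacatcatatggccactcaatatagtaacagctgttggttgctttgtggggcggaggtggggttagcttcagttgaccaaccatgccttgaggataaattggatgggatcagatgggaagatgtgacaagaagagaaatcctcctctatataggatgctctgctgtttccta
A match of letters is a description and not a binding site, and its absence from the other 7 members says nothing on ATF4 binding beyond these windows.

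**Figure D1:**
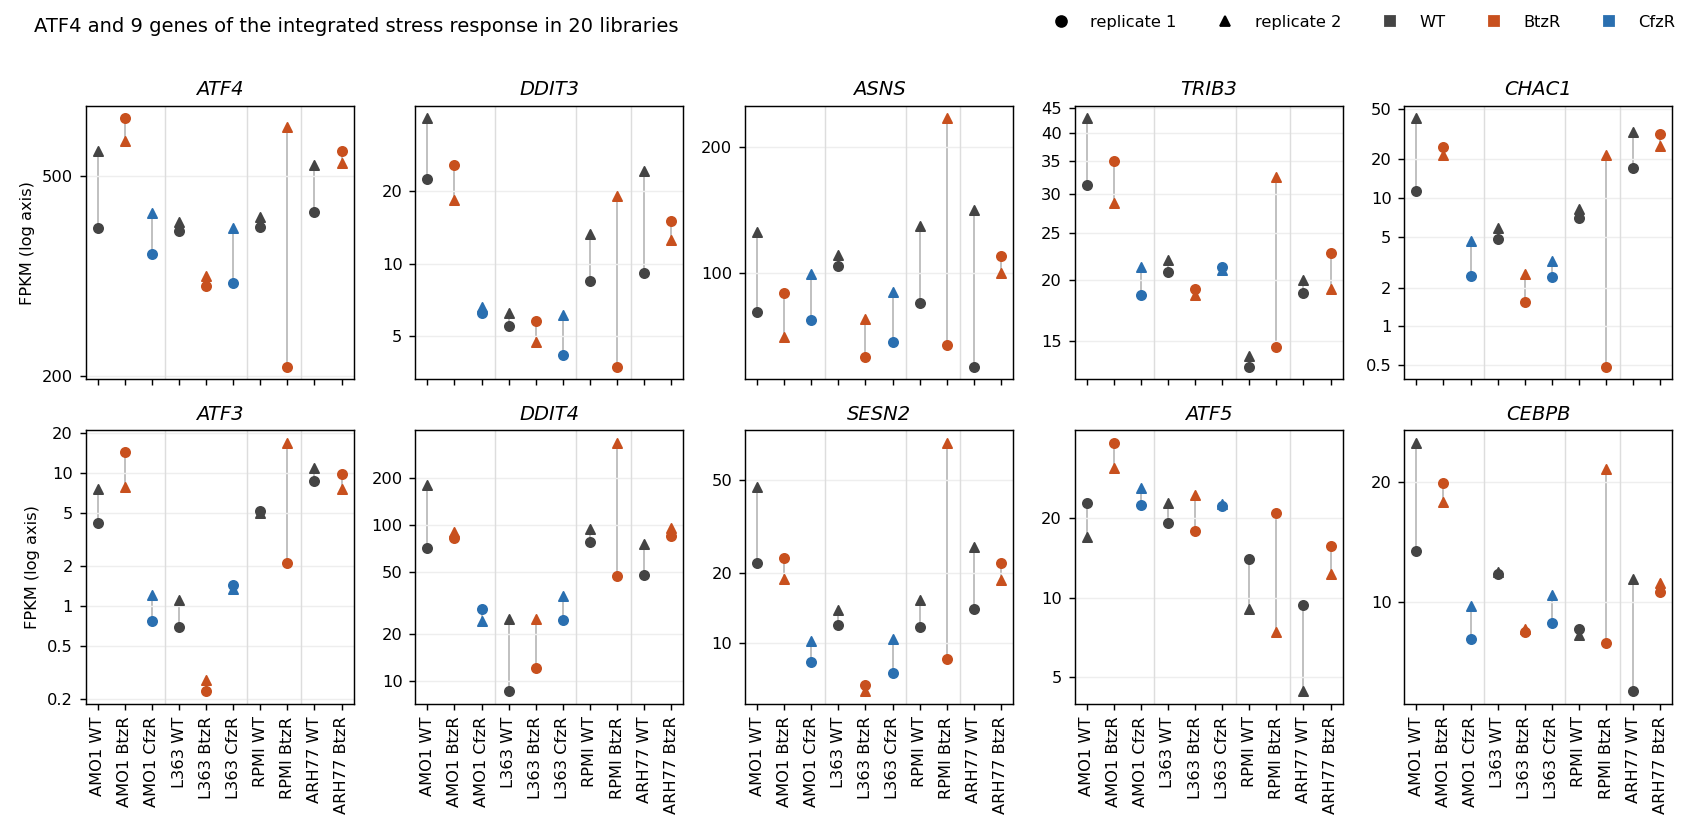
FPKM (log axis) of each member in every library, with circles for replicate 1, triangles for replicate 2, and grey, orange and blue for WT, BtzR and CfzR cells. In RPMI BtzR the triangle lies far above the circle for every member but ATF5, where it lies below (7.41 against 21.0 FPKM).

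Among the transcription factors, ATF4 itself was the most abundant message. It is held in reserve as mRNA and governed mainly by translation, so its transcript need not follow its protein. AMO1 WT libraries had 394 and 560.5 FPKM, AMO1 BtzR 650.2 and 585, and those labelled AMO1 CfzR 349 and 423. L363 gave 389 and 404 FPKM in WT, 302 and 317 in BtzR, and 307 and 394 in CfzR cells. RPMI had 395 and 413 FPKM in WT but 209 and 626 in BtzR, and ARH77 had 424 and 525 in WT and 560.15 and 531 in BtzR. The lowest of the 20 values and the second highest are thus the replicates of RPMI BtzR, and 8 of the 9 neighbouring pairs of groups, ordered by mean, overlapped. Only AMO1 BtzR, at the top, lay clear of the next group. RefSeq names 4 pseudogenes of ATF4 and 5 of ASNS, none of them in the table, and reads from such copies could fall on either gene.

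DDIT3 encodes CHOP, the factor tied to cell death under lasting stress. Its transcript was highest in AMO1, with 22.5 and 39.95 FPKM in WT and 25.7 and 18.3 in BtzR cells. All 6 L363 libraries lay between 4.19 and 6.22 FPKM, and the libraries labelled AMO1 CfzR had 6.25 and 6.60. RPMI WT had 8.44 and 13.2 FPKM, RPMI BtzR 3.73 and 19.1, ARH77 WT 9.17 and 24.2, and ARH77 BtzR 15.1 and 12.6. The replicates of RPMI BtzR again enclosed the WT libraries of the same line, and those of ARH77 WT enclosed the BtzR libraries.

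ATF3, an early-response factor of the same bZIP class, had the widest range after CHAC1, at 73.3-fold between the lowest and the highest library. It was nearly silent in L363, with 0.70 and 1.12 FPKM in WT, 0.23 and 0.28 in BtzR and 1.44 and 1.36 in CfzR cells, and in the libraries labelled AMO1 CfzR, with 0.78 and 1.21. AMO1 WT had 4.22 and 7.62 FPKM and AMO1 BtzR 14.5 and 7.81, RPMI WT 5.18 and 4.99 and RPMI BtzR 2.12 and 16.9, and ARH77 between 7.54 and 11.01 over its 4 libraries. Every library outside L363 and the pair labelled AMO1 CfzR was above all libraries of those 4 groups.

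CEBPB, the C/EBP family partner of ATF4, spanned 4.22-fold between its lowest and highest library. It lay between 8.40 and 11.9 FPKM in all L363 libraries, at 8.55 and 8.24 in RPMI WT, and at 10.6 and 11.1 in ARH77 BtzR. The libraries labelled AMO1 CfzR had 8.04 and 9.76 FPKM, and AMO1 BtzR was higher, with 19.9 and 17.8. Its replicates lay well apart in 3 groups, with 13.4 and 25.1 FPKM in AMO1 WT, 7.89 and 21.6 in RPMI BtzR, and 5.95 and 11.4 in ARH77 WT.

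ATF5, a close relative of ATF4 whose message is also controlled by eIF2α phosphorylation, followed another course. AMO1 WT had 22.9 and 17.0 FPKM, AMO1 BtzR 38.6 and 31.0, RPMI WT 14.0 and 9.07, RPMI BtzR 21.0 and 7.41, ARH77 WT 9.44 and 4.43, and ARH77 BtzR 15.7 and 12.3. In L363 and the libraries labelled AMO1 CfzR it lay between 17.95 and 26.1 FPKM. Its level in RPMI BtzR was thus high where the other 9 members were low and low where they were high. Over the 10 group means its Pearson r with the other members had a median of -0.26 and was positive for 3 of 9, while for each of the other members the median r lay between 0.20 and 0.79. These r rest on 10 means that share lines. The 3 L363 groups and the pair labelled AMO1 CfzR had the lowest means for ATF4, DDIT3, ATF3, CHAC1, DDIT4 and SESN2.

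Of the enzymes, ASNS makes asparagine and CHAC1 degrades glutathione. ASNS was present at 59.6 to 234 FPKM, and all 9 neighbouring pairs of groups overlapped. Its extremes were replicate 1 of ARH77 WT, with 59.6 FPKM against 141 in replicate 2, and replicate 2 of RPMI BtzR, with 234 against 67.1. CHAC1 ranged over 87.2-fold. AMO1 WT had 11.4 and 41.85 FPKM, AMO1 BtzR 24.9 and 21.8, ARH77 WT 17.3 and 32.9, and ARH77 BtzR 31.4 and 25.6. L363 libraries lay between 1.53 and 5.84 FPKM and those labelled AMO1 CfzR at 2.45 and 4.58, RPMI WT had 7.01 and 8.21, and RPMI BtzR had 0.48 and 21.8. One RPMI BtzR library therefore held the lowest CHAC1 value of the series, while its replicate was above both RPMI WT libraries.

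The feedback genes were TRIB3, a pseudokinase that dampens ATF4 and CHOP activity, and DDIT4 (REDD1) and SESN2, both inhibitors of mTORC1. TRIB3 was the steadiest of the 3, at 18.65 to 22.7 FPKM in all libraries of L363, ARH77 and the pair labelled AMO1 CfzR. It was higher in AMO1 WT (31.3 and 42.8 FPKM) and AMO1 BtzR (35.0 and 28.8) and lower in RPMI WT (13.3 and 14.0), while RPMI BtzR gave 14.6 and 32.5. DDIT4 lay between 8.54 and 34.9 FPKM in L363 and at 28.9 and 24.4 in the pair labelled AMO1 CfzR, and reached 71.7 and 182 in AMO1 WT, 78.4 and 94.6 in RPMI WT, and 47.2 and 338 in RPMI BtzR. The other AMO1 and ARH77 libraries had between 47.9 and 95.9 FPKM of DDIT4. SESN2 had 22.1 and 46.8 FPKM in AMO1 WT, 11.7 and 15.3 in RPMI WT and 8.5 and 72.3 in RPMI BtzR, and lay between 6.18 and 13.8 in L363 and the pair labelled AMO1 CfzR. AMO1 BtzR and ARH77 had between 14.0 and 25.75 FPKM of SESN2. For all 3, the top RPMI BtzR library exceeded both RPMI WT libraries, and for DDIT4 and SESN2 the lower one was below both.

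**Figure D2:**
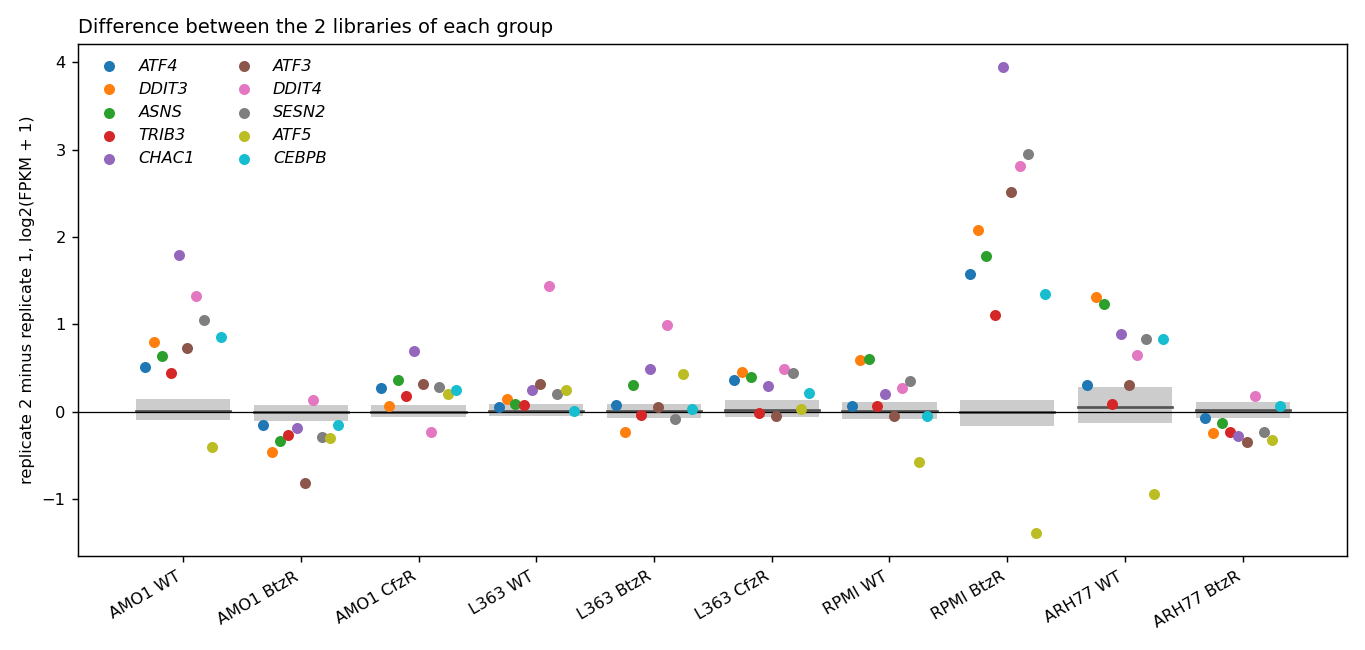
Difference between the replicates of each group (replicate 2 minus replicate 1, log2(FPKM + 1)) for each member (points), over the median and interquartile range of all 13089 tested genes (grey line and box). RPMI BtzR spreads from -1.39 for ATF5 to 3.94 for CHAC1, and AMO1 WT and ARH77 WT show the next widest spread.

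The gap between replicates was therefore measured for every member and group, as the absolute difference of log2(FPKM + 1). In RPMI BtzR all 10 members differed by more than 1 log2 unit, against 1.00% of all genes tested. Their median gap was 1.93 there, against 0.15 for all genes. CHAC1 had the second largest gap of the 13089 genes, at 3.94, and SESN2 (2.95), DDIT4 (2.82), ATF3 (2.52) and DDIT3 (2.08) were also among the 20 largest. ASNS (1.78), ATF4 (1.58), ATF5 (1.39), CEBPB (1.35) and TRIB3 (1.11) completed the list within the 100 largest. On the FPKM scale replicate 2 stood above replicate 1 by 45.3-fold for CHAC1, 8.5-fold for SESN2 and 3.0-fold for ATF4, and below it by 2.84-fold for ATF5. In all, 131 genes of RPMI BtzR differed by more than 1, of which 99 were higher in replicate 2.

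The same members stood apart, less widely, in 2 parental groups. In AMO1 WT the median gap was 0.76 against 0.11 for all genes, and CHAC1 (1.79), DDIT4 (1.33) and SESN2 (1.05) passed 1 log2 unit, as did 0.283% of all genes. In ARH77 WT it was 0.84 against 0.21, with DDIT3 at 1.31 and ASNS at 1.23, but 1.23% of all genes passed 1 log2 unit in that group too. Replicate 2 was the higher one for 9 of 10 members in both groups, against 52.2% and 57.6% of all genes. ATF5 was the exception in each, by -0.41 in AMO1 WT and -0.94 in ARH77 WT. AMO1 BtzR and ARH77 BtzR ran the other way by smaller amounts, with 9 and 8 of 10 members higher in replicate 1 and median gaps of 0.28 and 0.23. Of all genes, 44.0% and 53.1% were higher in replicate 2 of these groups. The 3 L363 groups and the pair labelled AMO1 CfzR had median gaps of 0.16 to 0.33, against 0.07 to 0.10 for all genes, and the only gap over 1 among them was that of DDIT4 in L363 WT (1.44).

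Over the 10 groups the sign of each member's gap was compared with that of ATF4. The same count was not made for all genes, so these counts have no share beside them. ASNS and CHAC1 had the sign of ATF4 in 10 of 10 groups, DDIT3 and SESN2 in 9, TRIB3, ATF3 and CEBPB in 8, DDIT4 in 7 and ATF5 in 6. ATF5 opposed ATF4 in RPMI BtzR, RPMI WT, AMO1 WT and ARH77 WT. The median gap over groups was largest for DDIT4 (0.57) and DDIT3 (0.46) and smallest for CEBPB (0.18) and TRIB3 (0.13). Of all tested genes, 99.8% had a smaller median gap than DDIT4, 94.3% a smaller one than ATF4 and 70.9% a smaller one than TRIB3. These gaps are given as descriptions without a test, and what set the cultures or libraries of a group apart was not tested.

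**Figure D3:**
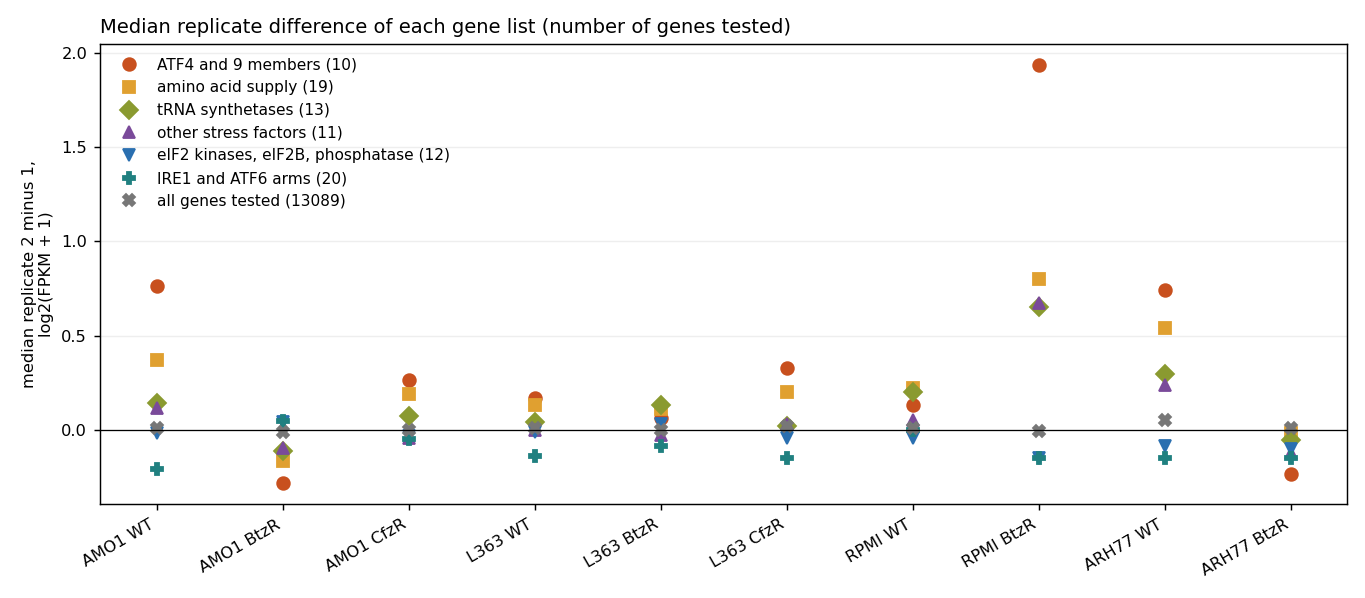
Median over each gene list of the difference between replicates (replicate 2 minus replicate 1, log2(FPKM + 1)) in each group, with the number of genes tested in brackets. The members and the amino acid genes lie above 0 in RPMI BtzR, AMO1 WT and ARH77 WT (medians 1.93 and 0.80 in RPMI BtzR), while the IRE1 and ATF6 genes lie below 0 there.

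Other genes of the response, listed by role, showed how far these differences reached. Of 19 ATF4 targets for amino acid supply, 18 were higher in RPMI BtzR replicate 2, against 46.0% of all genes, with a median difference of 0.80. They included CTH, which makes cysteine (3.23), PCK2 (2.25), the cystine transporter gene SLC7A11 (2.16) and PSAT1 of serine synthesis (1.91). All 13 genes of aminoacyl-tRNA synthetases and the tRNA exporter XPOT were also higher in that library, with a median of 0.65, as were 10 of 11 tested stress factors (0.67), BBC3 among them (1.41). In other groups the lists followed the members in part. The amino acid list was higher in replicate 2 for 17 of 19 genes in AMO1 WT and in ARH77 WT, and in AMO1 BtzR, where 9 of 10 members were lower, for 4 of 19. In ARH77 BtzR, where 8 of 10 members were lower in replicate 2, 9 of 19 amino acid genes were higher. The stress factors were higher for 5 of 11 genes in L363 WT, against 10 of 10 members, and for 4 of 11 in the libraries labelled AMO1 CfzR, against 9 of 10 members. Of all genes, 53.0% and 49.1% were higher in replicate 2 of these groups.

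In most groups, RPMI BtzR, AMO1 WT and ARH77 WT among them, the neighbouring arms of the unfolded protein response did not share the direction of the members. The IRE1 and ATF6 arms raise chaperones and degradation factors of the endoplasmic reticulum. Of 20 of their genes, 5 were higher in RPMI BtzR replicate 2, 6 in AMO1 WT replicate 2 and 5 in ARH77 WT replicate 2. The medians were -0.15, -0.20 and -0.15, and that of RPMI BtzR lay within the interquartile range of all genes (-0.16 to 0.14). In ARH77 BtzR the direction was shared, with 2 of 20 of these genes and 2 of 10 members higher in replicate 2. AMO1 BtzR had 13 of 20 of these genes and 1 of 10 members higher in replicate 2. For L363 WT these counts were 3 and 10, for L363 CfzR 4 and 8, and for L363 BtzR 6 and 7. They were 6 and 9 for the pair labelled AMO1 CfzR and 10 and 7 for RPMI WT. Of all genes, 44.0% to 55.1% were higher in replicate 2 of these last groups. EDEM1 (1.18) and HERPUD1 (1.12) were the ones past 1 log2 unit in RPMI BtzR. Among 12 genes of eIF2 kinases, the eIF2B exchange factor and the eIF2α phosphatase, 4 were higher in RPMI BtzR replicate 2, and PPP1R15A (GADD34), the stress-induced phosphatase subunit, was the only gap over 1 (1.39). These are descriptions of libraries, and the lists were not tested against each other.

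Resistant and parental cells of each line were then set against each other by limma, on log2(FPKM + 1) and with all 10 groups in the fit. Calls required an adjusted p (Benjamini-Hochberg, over all 13089 genes) under 0.05 together with a change of 1 log2 unit or more. The scale understates changes of genes at low FPKM, and a permutation test of 2 against 2 libraries could not go below a p of 0.33.

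**Figure D4:**
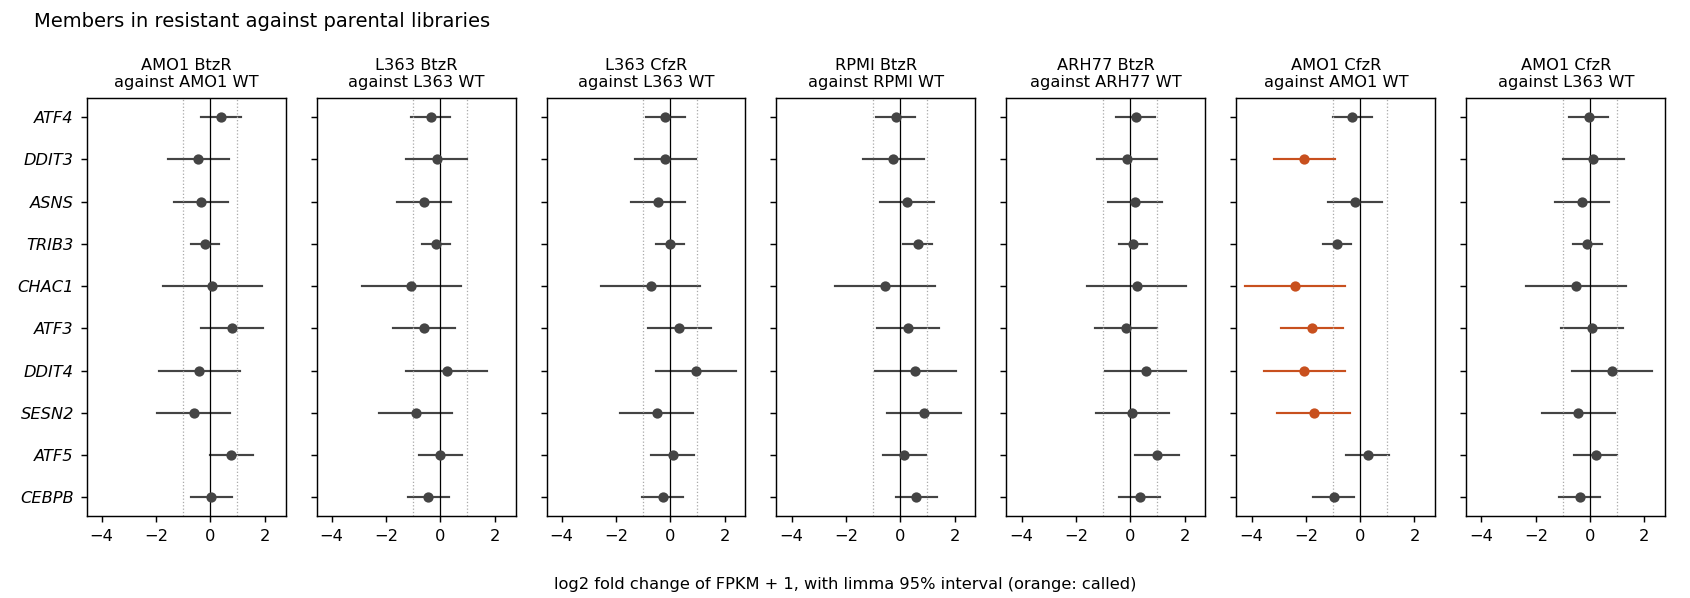
log2 fold change of FPKM + 1 for each member (points) with limma's 95% interval (lines) in each comparison, dotted lines marking a fold change of 1 log2 unit and orange the called genes. The 5 called members are all in the libraries labelled AMO1 CfzR against AMO1 WT, and the same libraries against L363 WT have none.

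In AMO1 BtzR limma called 0 members in either direction, where 9.18% of all genes were called (4.61% higher and 4.57% lower). An unadjusted p under 0.05 was found for 0 members, against 7335 of all 13089 genes. ATF4 (log2 fold change 0.39, 95% interval -0.33 to 1.11), ATF3 (0.80, -0.34 to 1.95) and ATF5 (0.78, -0.02 to 1.57) had both BtzR libraries above both WT libraries. That was so for 36.6% of all genes, while 38.5% had both below and 0 members did. SESN2 (-0.61), DDIT3 (-0.45) and DDIT4 (-0.40) had lower means with overlapping libraries. Elsewhere in the response ALDH1L2, a mitochondrial folate enzyme, fell from 32.9 to 10.8 FPKM (log2 fold change -1.52, adjusted p = 0.0015). XPOT fell by 1.62 and the death receptor gene TNFRSF10B by 1.06 on the log2 scale. Of the IRE1 and ATF6 genes, 5 of 20 were called lower, among them the stress sensor gene ERN1 (-1.30) and the chaperone gene PDIA4 (-1.30), and 0 were called higher. Summed T cell markers were at 1.39 and 1.99 FPKM in AMO1 BtzR, against 8.38 and 12.8 in AMO1 WT. CD3D and CD2 were under 1 FPKM in every myeloma library, so the sums in AMO1 WT rest mainly on CD3E and CD3G. Summed plasma cell markers were at 1707 and 1854 FPKM in AMO1 BtzR, against 3687 and 3360 in AMO1 WT. The part of these markers in the values was not tested.

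In L363 BtzR 0 members were called (2.06% of all genes, 1.02% higher and 1.05% lower). Again 0 had an unadjusted p under 0.05, against 3080 of all 13089 genes. In 7 of 10 members, however, both BtzR libraries were below both WT libraries, against 30.6% of all genes, and in 0 members were both above, against 31% of all genes. Both values of CHAC1 (1.53 and 2.54 against 4.76 and 5.84 FPKM, log2 fold change -1.07, 95% interval -2.90 to 0.76) and SESN2 (6.61 and 6.18 against 11.9 and 13.8, -0.90, -2.25 to 0.45) lay there, as did those of ASNS (-0.61), ATF3 (-0.60), CEBPB (-0.43), ATF4 (-0.36) and TRIB3 (-0.17). Outside the members STC2, a secreted stress glycoprotein, fell from 10.8 to 3.42 FPKM (log2 fold change -1.41, adjusted p = 0.017).

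In L363 CfzR 0 members were called (1.93% of all genes, 1.11% higher and 0.825% lower). As before, 0 had an unadjusted p under 0.05, against 2457 of all 13089 genes. ASNS (-0.44), CHAC1 (-0.72), SESN2 (-0.49) and CEBPB (-0.28) had both CfzR libraries below both WT libraries, against 27.4% of all genes, and ATF3 (0.34) had both above, against 24.8% of all genes. The widest interval was that of CHAC1, from -2.55 to 1.11. Both L363 comparisons use the same WT libraries. Set against each other directly, CfzR and BtzR cells of L363 differed by 0 calls among members (1.47% of all genes, 0.94% higher and 0.535% lower). Here too 0 members had an unadjusted p under 0.05, against 1938 of all 13089 genes. Both CfzR libraries were above both BtzR libraries for ATF3, TRIB3, SESN2 and CEBPB, against 22.2% of all genes, and both were below for 0 members, against 24.6%. The difference was largest for ATF3, at 1.44 and 1.36 FPKM in CfzR against 0.23 and 0.28 in BtzR cells (log2 fold change 0.94, 95% interval -0.21 to 2.08).

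In RPMI BtzR 0 members were called, where 13.8% of all genes were (5.91% higher and 7.92% lower). TRIB3 alone of the members had an unadjusted p under 0.05, against 7712 of all 13089 genes. Its fold change was 0.64 (95% interval 0.12 to 1.16, adjusted p = 0.038), under the fold threshold, and both BtzR libraries (14.6 and 32.5 FPKM) were above both WT libraries (13.3 and 14.0), as for 41.3% of all genes. For the other 9 members the libraries overlapped, so that 0 had both BtzR libraries below WT, against 32.5% of all genes. The outcome depended on the BtzR replicate used. Without replicate 1, 7 members were called higher (6.61% of all genes) and 0 lower (7.98%), namely SESN2 (2.35), DDIT4 (1.96), ATF3 (1.55), CHAC1 (1.41), CEBPB (1.27), TRIB3 (1.19) and ASNS (1.15). Without replicate 2, CHAC1 (-2.54) and DDIT3 (-1.29) were called lower (8.1% of all genes) and 0 members higher (5.99%). CHAC1 was thus called in opposite directions, and no direction is given for the members in this line.

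Genes of the response outside the members did differ between RPMI BtzR and WT cells with both replicates in the fit. Called lower were ALDH1L2 (0.28 against 5.0 FPKM, log2 fold change -2.22), PSAT1 (28.2 against 70.8, -1.58), the neutral amino acid transporter gene SLC1A4 (-1.0) and EIF2AK4, which encodes the amino acid sensing kinase GCN2 (4.23 against 13.2, -1.44). STC2 (1.38), TNFRSF10B (1.32) and SQSTM1, an autophagy receptor gene (1.22), were called higher. Of the IRE1 and ATF6 genes 4 of 20 were called lower, HERPUD1 (-1.45), PDIA4 (-1.25), SYVN1 (-1.19) and CALR (-1.02), and 0 higher. Among these named genes PSAT1 (1.91), STC2 (1.34) and HERPUD1 (1.12) also had gaps over 1 log2 unit between the BtzR replicates. The gaps of the others named were under 1. Their calls were not followed on leaving out 1 library, as those of the members were. Summed myeloid markers were at 9.83 and 12.05 FPKM in RPMI BtzR and at 23.05 and 18.65 in RPMI WT. CD14 and CSF1R were under 1 FPKM in every myeloma library, so these sums rest mainly on LYZ and CD68. The part of these markers in the values was not tested.

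In ARH77 BtzR 0 members were called (1.6% of all genes, 0.955% higher and 0.649% lower). ATF5 alone of the members had an unadjusted p under 0.05, against 3494 of all 13089 genes. It had 15.7 and 12.3 FPKM against 9.44 and 4.43 in WT cells (log2 fold change 0.98, 95% interval 0.19 to 1.78, adjusted p = 0.099). ATF4 (0.21), ATF5 and DDIT4 (0.57) had both BtzR libraries above both WT libraries, against 17% of all genes, and 0 members had both below, against 26.9%. Without ARH77 WT replicate 1, ATF5 was called higher (1.46, adjusted p = 0.023), as were 1.1% of all genes. No gene of the other 5 lists was called in this line.

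Against AMO1 WT the libraries labelled AMO1 CfzR had 5 members called lower, where 9.21% of all genes were, and 0 called higher (7.88% of all genes, and 17.1% in either direction). These were CHAC1 (2.45 and 4.58 against 11.4 and 41.85 FPKM, log2 fold change -2.39, SE 0.86, adjusted p = 0.027), DDIT3 (-2.06, adjusted p = 0.0035), DDIT4 (-2.06, adjusted p = 0.020), ATF3 (-1.76, adjusted p = 0.011) and SESN2 (-1.71, adjusted p = 0.031). CEBPB (-0.98) and TRIB3 (-0.85) passed the adjusted p but not the fold threshold, and for these 7 members both libraries lay below both of AMO1 WT, against 43.2% of all genes, while 0 members had both above, against 37.3%. ATF4 (-0.29), ASNS (-0.20) and ATF5 (0.28) overlapped. In the other lists calls went both ways, with 2 higher and 6 lower of 19 amino acid genes, 1 and 2 of 13 synthetase genes, 1 and 6 of 11 stress factors, 1 and 3 of 20 IRE1 and ATF6 genes, and 0 and 1 of the 12 eIF2 genes. The largest falls were those of GDF15, a secreted stress cytokine (0.04 against 10.4 FPKM, -3.43), and PPP1R15A (4.84 against 41.2, -2.85). The largest rises were those of STC2, which was listed at 0 in AMO1 WT and had a mean of 8.28 FPKM in these libraries, and XBP1, the factor activated by IRE1 (653 against 70.7 FPKM, 3.20). Summed T cell markers were also lower, at 0.45 and 0.76 FPKM against 8.38 and 12.8 in AMO1 WT. Myeloid markers were too, at 4.75 and 4.14 against 9.79 and 11.6. CD3D, CD2, CD14 and CSF1R were under 1 FPKM in every myeloma library. The sums in AMO1 WT thus rest mainly on CD3E and CD3G, and on LYZ and CD68. Summed plasma cell markers, XBP1 among them, were at 1409 and 1345 FPKM, against 3687 and 3360 in AMO1 WT. The part of these markers in the result was not tested. Fewer expressing cells and less RNA per cell cannot be told apart in bulk RNA.

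Set against L363 WT, which they resemble across all genes, the same libraries had 0 members called (1.66% of all genes, 0.856% higher and 0.802% lower). An unadjusted p under 0.05 was found for 0 members and for 2154 of all 13089 genes. The fold changes of the members ran from -0.52 for CHAC1 to 0.81 for DDIT4, with 95% intervals of -2.35 to 1.32 and -0.68 to 2.30. Both libraries were below both of L363 WT for ASNS, CHAC1, SESN2 and CEBPB, against 32.1% of all genes, and above for DDIT3, against 24.3%. The difference between cell lines and an effect of carfilzomib cannot be told apart in the comparison with AMO1 WT. Without AMO1 WT replicate 2, or without the first library labelled AMO1 CfzR, 1 of the 5 calls was left (9.14% and 9.17% of all genes called lower), and without the second 3 were left (9.4%). Without AMO1 WT replicate 1 there were 7 calls (9.79%), with TRIB3 (-1.07) and CEBPB (-1.41) added.

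Averaged over the BtzR cells of the 4 lines, 0 members were called (1.7% of all genes, 0.527% higher and 1.17% lower). ATF5 had a mean log2 fold change of 0.48 (SE 0.19, adjusted p = 0.043), under the fold threshold, from 0.78 in AMO1, 0.00 in L363, 0.15 in RPMI and 0.98 in ARH77. It was the only member with an unadjusted p under 0.05, against 7534 of all 13089 genes. Limma's F test asked whether the bortezomib effect differed between the lines. It passed an adjusted p of 0.05 for 0 of 10 members and 71.1% of all genes, with adjusted p-values from 0.12 for TRIB3 to 0.97 for DDIT3. Without RPMI BtzR replicate 1 it passed for 8 members (70.7% of all genes), and without replicate 2 for ATF4, CHAC1 and ATF3 (71.2%). With the RPMI BtzR libraries left out and 3 lines compared, ATF4 (adjusted p = 0.031) and ATF3 (adjusted p = 0.015) passed, as did 52.8% of all genes. Both had higher means in AMO1 BtzR than in AMO1 WT and lower means in L363 BtzR than in L363 WT.

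**Figure D5:**
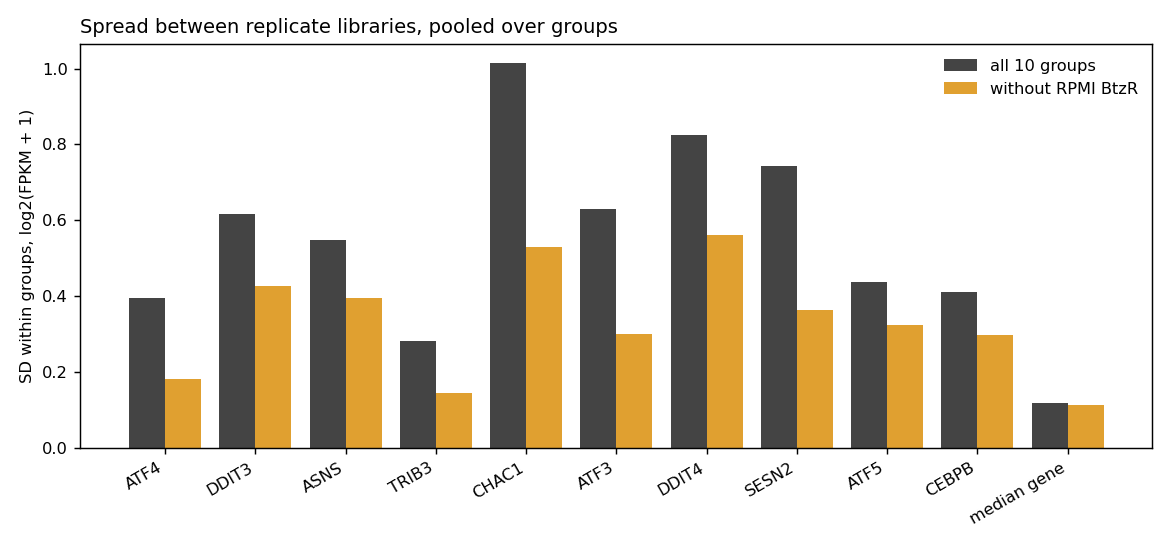
Standard deviation within groups of log2(FPKM + 1) for each member and for the median tested gene, pooled over all 10 groups (grey) and without RPMI BtzR (yellow); bars start at 0. The SD of CHAC1 falls from 1.01 to 0.53, while that of the median gene moves from 0.12 to 0.11.

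The gap in RPMI BtzR also entered the error of every other comparison, because the fit pools the spread over groups. RPMI BtzR held between 50.7% (ATF5) and 80.7% (ATF4) of the summed squares within groups for the members, against a median of 9.31% over all genes. Within-group SDs were 0.28 for TRIB3 to 1.01 for CHAC1 with all groups, and 0.14 for TRIB3 to 0.56 for DDIT4 without RPMI BtzR, against 0.12 and 0.11 for the median gene. Leaving those libraries out changed no member count in the comparisons of other lines with their own WT cells. ATF3 (0.80, adjusted p = 0.018) and ATF5 (0.78, adjusted p = 0.028) in AMO1 BtzR and ATF5 (0.98, adjusted p = 0.027) in ARH77 BtzR then passed the adjusted p but not the fold threshold.

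Before any drug, the parental lines differed in 6 of 10 members by limma's F test, against 92.6% of all genes. TRIB3 (adjusted p = 0.00080), ATF3 (0.0029), ATF5 (0.0034), DDIT4 (0.0057), DDIT3 (0.0082) and CEBPB (0.031) passed, and ATF4 (0.81), ASNS (0.97), CHAC1 (0.087) and SESN2 (0.21) did not. L363 WT had the lowest mean of the 4 lines for DDIT3, CHAC1, ATF3, DDIT4, SESN2 and ATF4, and AMO1 WT the highest for ATF4, DDIT3, TRIB3, CHAC1, DDIT4, SESN2 and CEBPB. Only for TRIB3 and CEBPB did both AMO1 WT libraries lie above all other parental libraries, which was not counted over all genes. For ATF4 the means of AMO1 WT and ARH77 WT were 477 and 474 FPKM. The L363 WT libraries overlapped those of another parental line for ATF4 and SESN2. With the RPMI BtzR libraries left out of the fit CHAC1 (adjusted p = 0.0012) and SESN2 (0.0046) passed as well, which made 8 of 10, against 93.6% of all genes. Each line is 1 culture history, so a line and its culture cannot be told apart.

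Genes whose group means resembled those of a member most closely were found by Pearson's r over the 10 groups, without regard to function. TRIB3 was closest to MBTPS1 (r = 0.986) and MAD1L1, ATF3 to SCRN3 (0.990) and ACAT2, and DDIT3 to C11orf1 (0.984) and CCL5. CHAC1 was closest to C19orf48 (0.973) and TNFSF9, DDIT4 to ARRDC2 (0.958) and CCND1, and ATF4 to DNAL4 (0.965) and HELZ2. ASNS had MYNN (0.956) and MRPL47, ATF5 had C11orf58 (0.974) and MNAT1, and CEBPB had BCAN (0.944) and BBC3 (0.941). SESN2 had IL17D (0.964) and MTHFD2 (0.963), the latter a mitochondrial folate enzyme gene of the amino acid list. The 10 means share cell lines, and the best of 13089 genes over 10 points is high by selection.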

How the data were processed

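RNA from 20 cell line libraries was extracted, made into libraries and sequenced by BGI on the BGISEQ-500. The authors deposited FPKM values per gene and replicate with NCBI gene IDs, to 2 decimals. The submitters' processing notes name HISAT2 2.0.4, Bowtie2 2.2.5 and RSEM 1.2.12, and the genome build is not given in the sources used here. No counts accompany the values, so depth is unknown, no count model was used and no counting interval was computed. All value columns were used (0 left out).

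A gene entered the tests when any group reached a mean of 1 FPKM. Tests used limma 3.58.1 in R 4.3.3 on log2(FPKM + 1), with 1 mean per group and a mean-variance trend, and Benjamini-Hochberg adjustment over all 13089 genes. The scripts were tested on simulated data. Python 3.11.15, numpy 2.4.6, pandas 2.3.3 and matplotlib 3.10.9 were used for tables and figures.

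The members and lists were chosen with earlier results of these data known. All members are described. Of the other lists, up to 2 of the largest called rises and 2 of the largest called falls with both libraries beyond WT are named by rule. Further genes were named after their values were seen. The 2 genes with the highest r are named per member. Alternatives were other pseudocounts, filters, scalings and variance models, a replicate block, a fit of each pair of groups alone, the myeloma lines alone, and the omission of every library in turn. Leaving out the RPMI BtzR or the AMO1 CfzR libraries was added after the data were seen. A marker gene of the cell type check is not reported here.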

Additional observations from a re-analysis of the deposited data

How the results depend on the processing

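Libraries decided most of the changes. For the libraries labelled AMO1 CfzR against AMO1 WT, 5 members were called lower, 3 with no filter, and 1 to 7 on leaving out 1 library (1 without AMO1 WT replicate 2 or AMO1 CfzR replicate 1, 3 without AMO1 CfzR replicate 2, and 7 without AMO1 WT replicate 1). CHAC1 lost its call there at a pseudocount of 0.01 (adjusted p = 0.060), with no filter (0.052) and with the compared libraries alone (0.056), and SESN2 with no filter (0.058). CEBPB was called at pseudocounts of 0.1 and 0.01 and under TPM scaling. Leaving out 1 library gave 0 to 7 members called higher and 0 to 2 called lower in RPMI BtzR, 0 to 1 higher in ARH77 BtzR, 0 to 8 past the test of the bortezomib effect between lines and 4 to 7 past the test between parental lines. In RPMI BtzR, CHAC1 went from -0.57 to 1.41 without replicate 1 and to -2.54 without replicate 2. With the RPMI BtzR libraries left out, an alternative chosen after seeing the data, 2 members passed the test between lines. In the parental test CEBPB missed the threshold with no filter (adjusted p = 0.062), and CHAC1 (0.019) and SESN2 (0.043) passed with those libraries alone. The median gap of L363 BtzR was 0.28 at a pseudocount of 0.01, against 0.16. The cause of these changes was not tested.

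At pseudocounts of 0.1 and 0.01 the number of all genes called went from 1201 to 1919 and 2024 in AMO1 BtzR, from 1809 to 2722 and 2845 in RPMI BtzR, from 270 to 580 and 582 in L363 BtzR, from 253 to 546 and 517 in L363 CfzR, from 210 to 473 and 465 in ARH77 BtzR, from 193 to 383 and 348 between L363 CfzR and BtzR, from 217 to 494 and 510 for AMO1 CfzR against L363 WT, and from 222 to 760 and 1094 for the mean bortezomib effect. For AMO1 CfzR against AMO1 WT it went from 2237 to 3412 at 0.01. ARH77 BtzR had 342 under TPM scaling, 0 with the compared libraries alone and 347 without ARH77 WT replicate 1. L363 CfzR against BtzR had 109 with the compared libraries alone. The mean effect had 378 under TPM scaling, 437 over the myeloma lines and 132 without the RPMI BtzR libraries.

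Labels share replicate numbers, but nothing says that a number marks a common day or culture. Replicate differences correlated across genes at r of -0.0055 (AMO1 BtzR with AMO1 WT) to 0.245 (RPMI). With the replicate block 5 members were called lower in the libraries labelled AMO1 CfzR and 0 in the other comparisons, and CHAC1 passed the parental test (adjusted p = 0.038). With unknown depth, the error of low values such as CHAC1 at 0.48 FPKM is also unknown.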
